A study of Sus scrofa with 6 samples.

Results

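The interleukin-1 (IL-1) family is the group of cytokines, receptors and processing genes examined here in pig lung around birth. Members were chosen by gene symbol, and 10 symbols were listed: the ligands IL1A, IL1B, IL1RN, IL18 and IL33, the receptors IL1R1, IL1RL1 and IL18R1, the binding protein IL18BP and the protease CASP1. Rows for 7 of them were found among the 14579 mRNAs of the expression table. IL1RN, IL1RL1 and IL18BP were matched to no row and were not analysed here.

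RNA was sequenced from the lungs of 6 female piglets, all crosses of a Tibetan pig sire with a Meishan dam. The fetal samples (Fetal1, Fetal2 and Fetal3) were taken from 3 sows on the last day of pregnancy. The neonatal samples (Neonatal1, Neonatal2 and Neonatal3) were taken from the litters of 3 different sows 2 days after birth. Each library came from 1 piglet and from whole lung tissue, so that fewer cells of a type and less RNA per cell cannot be told apart. Values are FPKM (sequenced fragments scaled to transcript length and library size), a level per length that can be compared between genes. The median mRNA stood between 4.99 and 6.11 FPKM in the 6 samples, and read counts behind single values are unknown. Of the lung markers, the surfactant protein gene SFTPC lay between 3171 and 8790 FPKM, and AGER, a marker of alveolar type I cells, between 396 and 767 FPKM. The club cell gene SCGB1A1 was at 0.213 FPKM in Neonatal2 and between 61.998 and 139 FPKM in the other samples.

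Cytokines of the IL-1 family bind a receptor chain, recruit an accessory chain and signal through MYD88 and the IRAK kinases to NF-kB. IL1A and IL33 are stored in epithelial and other barrier cells and are released when cells are damaged, and their full-length forms are active. IL1B and IL18 are made as inactive precursors, which caspase-1 (CASP1) cuts inside a protein complex called the inflammasome. IL1RN blocks the IL-1 receptor, IL18BP captures IL18, and IL1RL1 is the receptor of IL33 on innate lymphoid cells and mast cells.

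For IL18 and IL33 the study also designed qRT-PCR primers, which are shown because they define which stretch of each message that assay amplifies. The qRT-PCR readings were not analysed here. The primers, 5′ to 3′ and with no base singled out by capitals, were as follows.
IL18 forward: aaacgatgaagacctggaa
IL18 reverse: tcaaacacggcttgatgt
IL33 forward: ggtgttactccgttactatga
IL33 reverse: ctccaggatggctcttac

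The comparison of the neonatal with the fetal group asks how the family changed across birth. IL33, IL18 and IL1A were higher in the neonatal lungs, by 2.57, 1.66 and 1.48 on the log2(FPKM + 1) scale. The precursor cytokine IL1B and its protease CASP1 were also higher on average, and the receptor chain IL18R1 was lower, but none of these passed the test. The signalling receptor IL1R1 stood at nearly the same level in both groups. Differences were fitted in limma across all mRNAs, and an adjusted p (Benjamini-Hochberg) of at most 0.05 counted as a call. Of the 10 members, 3 passed, all higher in the neonatal group, 4 did not pass, and 3 were not analysed. Among all mRNAs 6.87% passed, 5.41% being higher and 1.45% lower in the neonatal group. Of all calls, 78.8% were higher, against 66.0% after median-of-ratios scaling and 57.9% after quantile normalization. The log2 difference over all mRNAs had a median of 0.13, which median-of-ratios scaling moved to -0.01, and the members are read against that shift.

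The table holds only mRNAs with FPKM above 0.5 in at least 1 sample. IL1A and IL1B exceeded 0.5 FPKM in 3 of 3 neonatal and in 0 of 3 fetal samples, and IL18R1 in 3 of 3 fetal and in 0 of 3 neonatal samples. These members entered the table through 1 group alone, so their separation between the groups was partly set by that filter. IL18, IL33, IL1R1 and CASP1 exceeded it in all samples.

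**Figure D1:**
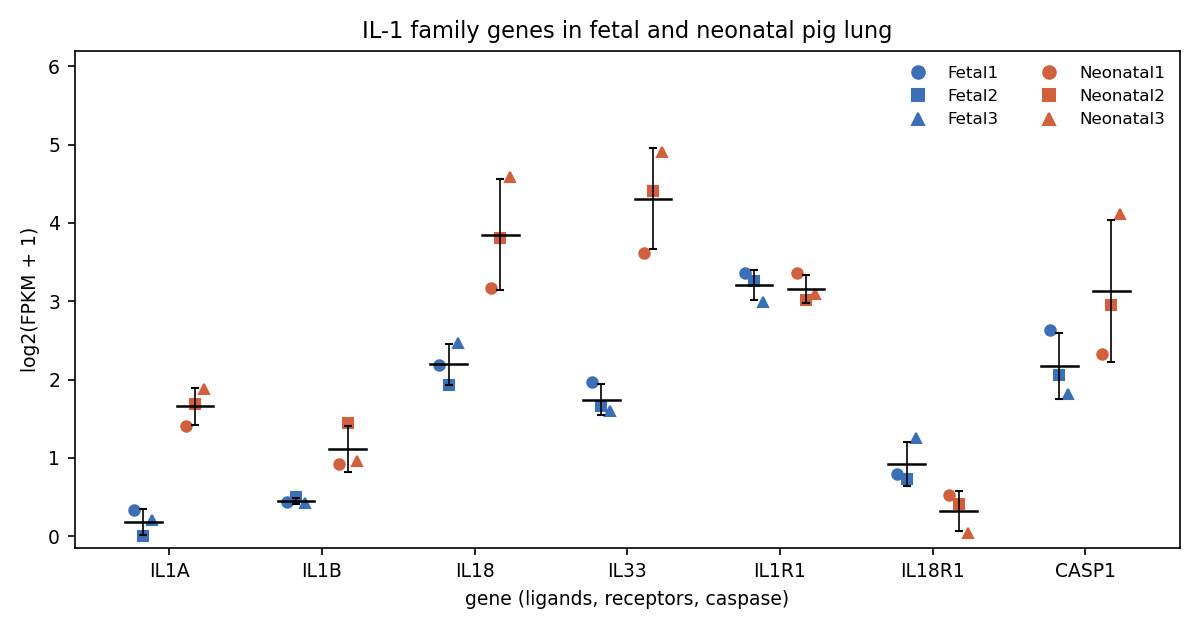
Levels of the 7 measured IL-1 family genes as log2(FPKM + 1), with 1 point per piglet, blue for fetal and red for neonatal samples. Horizontal bars are group means and error bars are SD (n = 3). IL33, IL18 and IL1A lie higher in all 3 neonatal samples, while the groups overlap for IL1R1 and CASP1.

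Among the ligands, IL33 (ENSSSCG00000005203), the alarmin of barrier cells, was measured at 2.91, 2.15 and 2.02 FPKM in Fetal1, Fetal2 and Fetal3. In Neonatal1, Neonatal2 and Neonatal3 it stood at 11.3, 20.3 and 28.9 FPKM. The groups did not overlap, and the neonatal values were spread more widely than the fetal ones. The difference of 2.57 had a standard error of 0.33 (95% interval 1.81 to 3.34, adjusted p = 0.00735). Leaving out Fetal2 raised the adjusted p to 0.0562. It was at most 0.0480 with any other sample left out.

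IL18 (ENSSSCG00000015037), whose product drives interferon-gamma release from lymphocytes, stood at 3.56, 2.82 and 4.51 FPKM before birth. It reached 7.96, 12.98 and 23.1 FPKM in Neonatal1, Neonatal2 and Neonatal3. The groups were fully separated, and the order of the neonatal samples was that seen for IL33. The difference of 1.66 had a standard error of 0.36 (95% interval 0.82 to 2.50, adjusted p = 0.0372). The call was lost in most fits with 1 sample left out. The adjusted p was 0.125, 0.168, 0.0947, 0.122 and 0.0877 without Fetal1, Fetal2, Fetal3, Neonatal2 and Neonatal3. In those fits the calls over all mRNAs also fell, from 1001 to between 196 and 397. The difference was 1.66, 1.53, 1.79 and 1.68 without Fetal1, Fetal2, Fetal3 and Neonatal2, and 1.29 without Neonatal3. Without Neonatal1 the adjusted p was 0.0310 and the difference 2.00.

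IL1A (ENSSSCG00000008090), an alarmin like IL33 that acts through IL1R1, was listed at 0.255, 0 and 0.149 FPKM in Fetal1, Fetal2 and Fetal3. The neonatal values were 1.65, 2.22 and 2.67 FPKM. Fetal levels were thus close to 0, and a listed 0 can be a failed estimate. The difference of 1.48 had a standard error of 0.22 (95% interval 0.97 to 1.99, adjusted p = 0.0115). Its size depended on the pseudocount, and it was 3.44 with 0.1 in place of 1 added to the FPKM (adjusted p = 0.0206). The adjusted p was 0.0633 without Fetal2 and 0.0514 without Neonatal2.

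IL1B (ENSSSCG00000008088), the main inflammatory IL-1 of macrophages, was lower than IL1A in each neonatal sample and higher in each fetal one. Its level was 0.350, 0.413 and 0.338 FPKM before birth and 0.891, 1.73 and 0.948 FPKM after it. The groups did not overlap, but the difference of 0.66 (95% interval 0.14 to 1.18) had an adjusted p of 0.128. With 0.1 as the pseudocount the difference was 1.41 (adjusted p = 0.115). RefSeq lists a second pig gene, IL1B2, whose synonym is IL1B, and reads of near-identical copies could be split between them, so the level of IL1B is uncertain.

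The receptors were measured for IL-1 and IL18. IL1R1 (ENSSSCG00000008162), the signalling receptor of IL1A and IL1B, stood at 9.28, 8.53 and 6.95 FPKM in the fetal and 9.26, 7.08 and 7.55 FPKM in the neonatal samples. The groups overlapped nearly completely. The difference was -0.05 (95% interval -0.49 to 0.40, adjusted p = 0.903), and it was -0.20 after median-of-ratios scaling. It was 0.035 without Fetal1 and 0.025 without Neonatal2.

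IL18R1 (ENSSSCG00000008159), the chain that binds IL18, went the other way from its ligand. Its fetal values were 0.741, 0.651 and 1.38 FPKM and its neonatal values 0.437, 0.325 and 0.0247 FPKM. Each neonatal value lay below each fetal value, with the lowest in Neonatal3, the sample with the most IL18. The difference of -0.60 (standard error 0.25, 95% interval -1.18 to -0.03) had an adjusted p of 0.189 and did not pass. Within a library the FPKM of IL18 was 4.81, 4.32 and 3.28 times that of IL18R1 in the fetal samples and 18.2, 39.9 and 934 times in the neonatal samples, a description for which no test was run. The last ratio rests on an IL18R1 level near 0.

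CASP1 (ENSSSCG00000028711), which cuts the precursors of IL1B and IL18, was present at 5.23, 3.17 and 2.53 FPKM in the fetal and 4.03, 6.77 and 16.4 FPKM in the neonatal samples. Fetal1 lay above Neonatal1, so the groups overlapped. The difference of 0.96 (95% interval -0.10 to 2.02) had an adjusted p of 0.243. Without Neonatal3 it was 0.47 (adjusted p = 0.471). IL18 stood at 0.682, 0.887 and 1.78 times the FPKM of CASP1 in the fetal libraries and at 1.98, 1.92 and 1.41 times in the neonatal ones, so Fetal3 lay within the neonatal range.

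Of all mRNAs, 30.5% had groups that did not overlap. This held for IL33, IL18, IL1A and IL1B, which were higher in the neonatal group, as for 20.9% of all mRNAs. It also held for IL18R1, which was lower, as for 9.64% of all mRNAs. IL1B took its symbol from a supplementary list of mRNAs that the study had called different in these samples.

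The order of the levels within the family differed between the groups. In the fetal lungs IL1R1 was highest, with a mean of 8.25 FPKM, and its lowest value lay above the highest value of any other member. CASP1 and IL18 followed at 3.64 and 3.63 FPKM, with overlapping ranges, and the range of IL33 (mean 2.36 FPKM) overlapped that of IL18. IL18R1, IL1B and IL1A came last, at 0.923, 0.367 and 0.135 FPKM, with no overlap between neighbours. In the neonatal lungs IL33 led with a mean of 20.2 ± 8.81 FPKM (SD, n = 3), above 81.3% of all mRNAs, where its fetal mean of 2.36 ± 0.479 FPKM lay above 29.6%. It was followed by IL18 (14.7 ± 7.69 FPKM), CASP1 (9.06 ± 6.48 FPKM) and IL1R1 (7.96 ± 1.15 FPKM), whose ranges overlapped from each to the next. IL1A (2.18 FPKM) stood apart from these and above IL1B (1.19 FPKM), with which it overlapped, and IL18R1 was lowest at 0.262 FPKM. IL33 exceeded IL18 in 3 of 3 neonatal samples, at 1.42, 1.56 and 1.25 times its FPKM, and lay below it in the fetal samples, at 0.817, 0.765 and 0.448 times.

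Other chains and decoys of the family gave no call. Of 13 symbols, 4 were measured, in 5 rows, and limma called 0 of them in either direction. An unadjusted p under 0.05 was reached by 1 row, and by 24.2% of all mRNAs, and the median difference of the 5 rows was -0.20. IL1R2, the decoy receptor that captures IL-1 without signalling, was the gene with 2 rows. The row named in the study's own list of called mRNAs (ENSSSCG00000008163) had 2.48, 1.51 and 0 FPKM in the fetal and 2.35, 8.14 and 3.003 FPKM in the neonatal samples. The row named in the reference table (ENSSSCG00000028331) had 1.33, 0.364 and 0.566 FPKM and then 0.122, 0.809 and 0.611 FPKM. Both rows overlapped between the groups, with differences of 1.27 (adjusted p = 0.204) and -0.20 (adjusted p = 0.706). The difference of the first row was 0.75 without Fetal3, where it was listed at 0, and 0.83 without Neonatal2, which holds its highest value.

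The ratio of the decoy IL1R2 to IL1R1 was taken within each library on the log2(FPKM + 1) scale. With the first row of IL1R2 its mean was -2.16 ± 0.741 before and -0.84 ± 0.923 after birth (SD, n = 3 each), and a two-sided exact permutation test of the difference of 1.32 gave p = 0.2. With the second row the means were -2.43 ± 0.338 and -2.59 ± 0.539, and the same exact test gave p = 0.6. A p of 0.1 is the lowest that this design of 3 against 3 can reach.

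SIGIRR, an inhibitory receptor of the family, had 4.81, 4.23 and 9.22 FPKM in the fetal and 2.99, 5.13 and 4.30 FPKM in the neonatal samples (difference -0.42, adjusted p = 0.437). IL1RAP, the accessory chain shared by the IL-1 and IL33 receptors, differed by -0.34 (adjusted p = 0.525) and lay between 0.372 and 2.22 FPKM in the 6 samples. IL18RAP, the accessory chain of the IL18 receptor, differed by -0.14 (adjusted p = 0.770) and lay between 0.296 and 1.22 FPKM. Thus no measured receptor chain, signalling, inhibitory or decoy, passed the test in either direction.

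**Figure D2:**
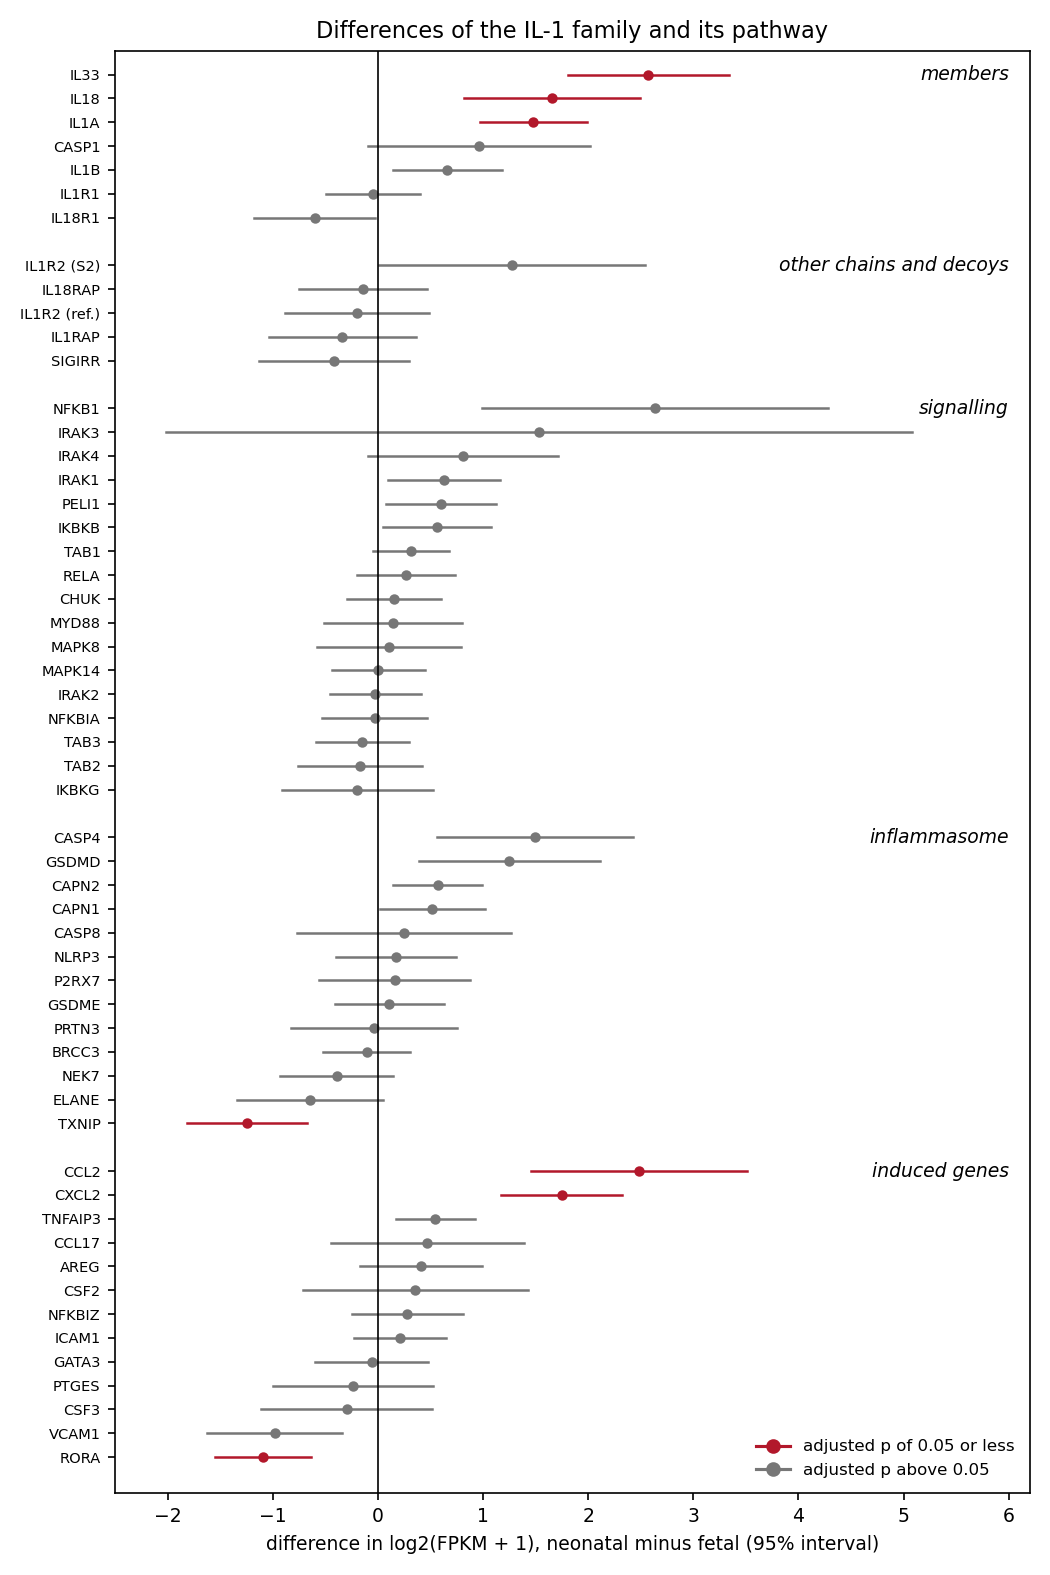
Neonatal minus fetal differences on the log2(FPKM + 1) scale, with 95% intervals from limma, for the measured members and 4 lists of related genes. Red marks an adjusted p of 0.05 or less: IL33, IL18, IL1A, CCL2 and CXCL2 lie to the right of 0, TXNIP and RORA to the left.

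Of the genes that carry the signal from the receptors to NF-kB, 17 of 20 were measured and limma called 0. An unadjusted p under 0.05 was reached by 4 of the 17, close to the 24.2% of all mRNAs, and the median difference was 0.15, beside 0.13 over all mRNAs. IRAK1, a kinase next to the receptor, had 4.401, 5.14 and 4.88 FPKM before birth and 6.18, 7.37 and 11.0 FPKM after birth, without overlap (difference 0.63, adjusted p = 0.152). IRAK4 had 2.61, 7.23 and 1.76 FPKM and then 6.67, 7.22 and 5.98 FPKM, with Fetal2 above all neonatal samples (difference 0.81, adjusted p = 0.249). The adaptor MYD88 differed by 0.14 (adjusted p = 0.786), a value named after the results were seen. A pair of rows in this list was very uneven between samples of a group. NFKB1, a subunit of NF-kB, was listed at 384, 204 and 156 FPKM in the fetal and 1136, 628 and 4174 FPKM in the neonatal samples (difference 2.64, adjusted p = 0.0711). Its groups did not overlap, and the difference was 1.87 without Neonatal3 (adjusted p = 0.124). IRAK3, an inhibitor of the pathway, was listed at 571 FPKM in Neonatal3 and between 5.14 and 22.9 FPKM elsewhere. Its difference of 1.53 (adjusted p = 0.569) was -0.44 without Neonatal3. With no overlap, 4 of the 17 genes were higher, beside 20.9% of all mRNAs, and 0 were lower, beside 9.64%.

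Of the genes of the inflammasome and of cytokine processing, 13 of 23 were measured and 1 was called, beside 6.87% of all mRNAs. TXNIP, an inhibitor of thioredoxin that can bind the inflammasome sensor NLRP3, was the gene called in limma. It fell from 301, 206 and 237 FPKM before birth to 88.5, 101 and 122 FPKM after it, a difference of -1.25 (standard error 0.24, adjusted p = 0.0277). The groups were far apart, but with any 1 of the 6 samples left out the adjusted p lay between 0.0536 and 0.110. CASP4, a caspase that senses lipopolysaccharide, had 8.96, 4.17 and 5.31 FPKM and then 12.02, 15.3 and 33.0 FPKM (difference 1.49, adjusted p = 0.0716). GSDMD, whose cut product forms the pores through which IL1B and IL18 leave the cell, had 19.6, 12.3 and 18.1 FPKM and then 22.6, 47.6 and 60.4 FPKM (difference 1.25, adjusted p = 0.0930). For both genes each neonatal value lay above each fetal value, with the highest in Neonatal3 as for CASP1. Without Neonatal1 the adjusted p of GSDMD was 0.0307. The sensor NLRP3, named after its values were seen, lay between 1.85 and 3.36 FPKM in the 6 samples (difference 0.17, adjusted p = 0.699). ELANE, a neutrophil elastase that can cut IL-1 cytokines, was listed at 1.28, 0.562 and 0.0710 FPKM in the fetal and at 0 in all neonatal samples, so it entered the table through the fetal group alone. The median difference of the list was 0.16. With no overlap, 4 of the 13 were higher, beside 20.9% of all mRNAs, and 2, TXNIP and ELANE, were lower, beside 9.64%. TXNIP and CASP4 took their symbols from the study's own list of called mRNAs, so these counts lean towards differences.

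Of 26 genes known to be induced by IL-1, IL18 or IL33 or to belong to their target cells, 13 were measured, 2 were called higher, beside 5.41% of all mRNAs, and 1 lower, beside 1.45%, with a median difference of 0.28. CCL2, a chemokine that draws monocytes, rose from 5.91, 2.32 and 0.996 FPKM before birth to 16.0, 16.6 and 25.9 FPKM after it (difference 2.48, standard error 0.44, adjusted p = 0.0206). CXCL2, a chemokine that draws neutrophils, rose from 0.586, 0.206 and 0.0962 FPKM to 2.43, 3.99 and 3.66 FPKM (difference 1.75, standard error 0.25, adjusted p = 0.00960). Both chemokines kept the groups apart. RORA, a nuclear receptor needed by type 2 innate lymphoid cells and expressed in many other cells, fell from 9.78, 7.85 and 7.08 FPKM to 2.82, 3.70 and 3.40 FPKM (difference -1.10, standard error 0.20, adjusted p = 0.0213). VCAM1, an adhesion molecule of endothelium, had 23.2, 20.5 and 24.9 FPKM and then 7.28, 11.4 and 16.1 FPKM (difference -0.98, adjusted p = 0.0809), and it passed after median-of-ratios scaling (adjusted p = 0.0326) and quantile normalization (adjusted p = 0.0238). The genes of this list therefore did not move in 1 direction. CXCL2 had an adjusted p of 0.0633 without Fetal2 and 0.0508 without Neonatal3. CCL2 passed only without Fetal1 and lay between 0.0544 and 0.110 without Fetal2, Fetal3, Neonatal1, Neonatal2 or Neonatal3. RORA passed only without Neonatal1 and lay between 0.0518 and 0.0991 without each of the others.

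**Figure D3:**
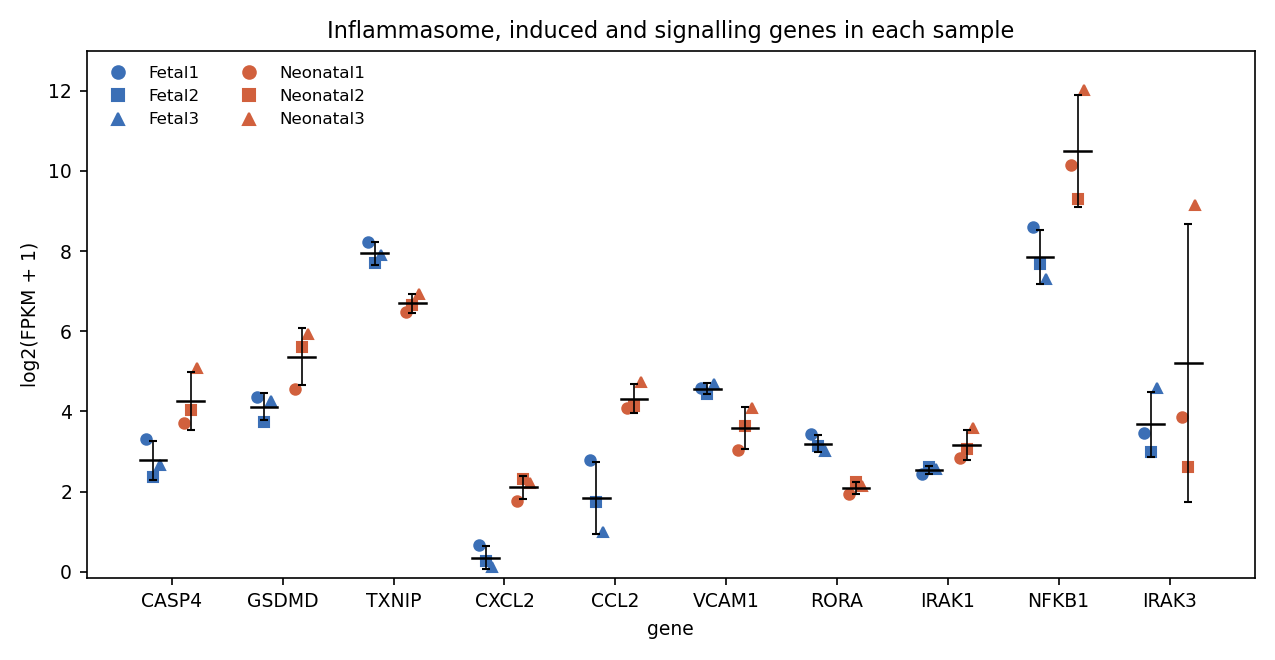
Levels of 10 inflammasome, induced and signalling genes as log2(FPKM + 1), with 1 point per piglet, group means as bars and SD as error bars (n = 3). CXCL2 and CCL2 are higher and TXNIP and RORA lower in all neonatal samples, and IRAK3 reaches 571 FPKM in Neonatal3 alone.

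Markers of blood-derived and lung cells were measured beside the members. The macrophage list, with 9 of 12 genes measured, summed to between 435 and 1006 FPKM in the fetal and between 757 and 1789 FPKM in the neonatal samples. Fetal1 lay above Neonatal1, and Neonatal1 was the lowest and Neonatal3 the highest neonatal sample, as for IL18, IL33 and CASP1. That order was not particular to macrophages. It also held for the neutrophil, lymphocyte, mast and innate lymphoid, alveolar type I and II, mesenchymal and erythroid lists, but not for the endothelial and airway lists. All 9 genes had a higher neonatal mean on the log2 scale, as did 59.9% of all mRNAs. Limma called 0 of them, and 6 had an unadjusted p under 0.05, beside 24.2% of all mRNAs. Among the 9 genes, AIF1 and C1QC took their symbols from the study's own list of called mRNAs, so these counts lean towards differences. CD68, a lysosomal protein of macrophages, had an adjusted p of 0.0506. No measured macrophage marker was listed at 0 in any sample. The neutrophil list, with 7 of 10 genes measured, summed to between 84.5 and 158 FPKM in the fetal and between 852 and 1321 FPKM in the neonatal samples. Of these, 4 rose, beside 5.41% of all mRNAs: the calgranulins S100A8, S100A9 and S100A12, and LTF, whose product lactoferrin is also made by glands. S100A9 and S100A12 took their symbols from the study's own list of called mRNAs, so the count cannot be weighed against that share. In each sample the calgranulins made up most of the summed FPKM. CSF3R, a growth factor receptor of neutrophils, and MMP8 had higher neonatal means and were not called (differences 1.23 and 0.69, adjusted p = 0.0846 and 0.229). ELANE, a granule gene of immature neutrophils, was listed at 0 in all neonatal samples. The part of macrophages and neutrophils in the differences of IL18, IL1A, IL1B and CASP1 was not tested.

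Lymphocyte markers, with 9 of 12 genes measured, summed to between 11.8 and 14.5 FPKM in the fetal and between 9.47 and 23.9 FPKM in the neonatal samples. These ranges overlapped, and the part of lymphocytes in the level of IL18R1 was not tested. Limma called 0 of the 9, with 3 at an unadjusted p under 0.05, beside 24.2% of all mRNAs. The B cell genes MS4A1 and CD79B were lower in every neonatal sample than in any fetal one, as were 9.64% of all mRNAs. MS4A1 had entered the table through the fetal group alone. NKG7, a gene of cytotoxic lymphocytes, had the higher mean in the neonatal group (difference 0.67, adjusted p = 0.187). Markers of mast cells and innate lymphoid cells, the cells known for the IL33 receptor, overlapped as well, between 15.7 and 21.5 FPKM in the fetal and 16.3 and 25.2 FPKM in the neonatal samples over 5 of 8 genes. The alveolar type II list (7 of 8 genes) summed to between 4875 and 5446 FPKM and then between 6597 and 11791 FPKM, with most of the sum in SFTPC. The endothelial list (6 of 8 genes) lay between 415 and 519 FPKM and then between 591 and 851 FPKM, and the mesenchymal list (6 of 8 genes) between 965 and 1245 FPKM and then between 1508 and 1887 FPKM. These 3 lists did not overlap between the groups, and their log2 ratios of neonatal to fetal means were 0.80, 0.71 and 0.60. In the endothelial list CLDN5, a tight junction gene, had a difference of 1.197 (adjusted p = 0.0585), while KDR, TEK and TIE1 had lower neonatal means, and the median difference over the list was -0.086. The alveolar type I (4 of 8 genes), airway (5 of 9 genes) and erythroid (6 of 8 genes) lists overlapped, with log2 ratios of 0.01, -1.56 and -0.75. The part of these cells in the level of IL33 was not tested.

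**Figure D4:**
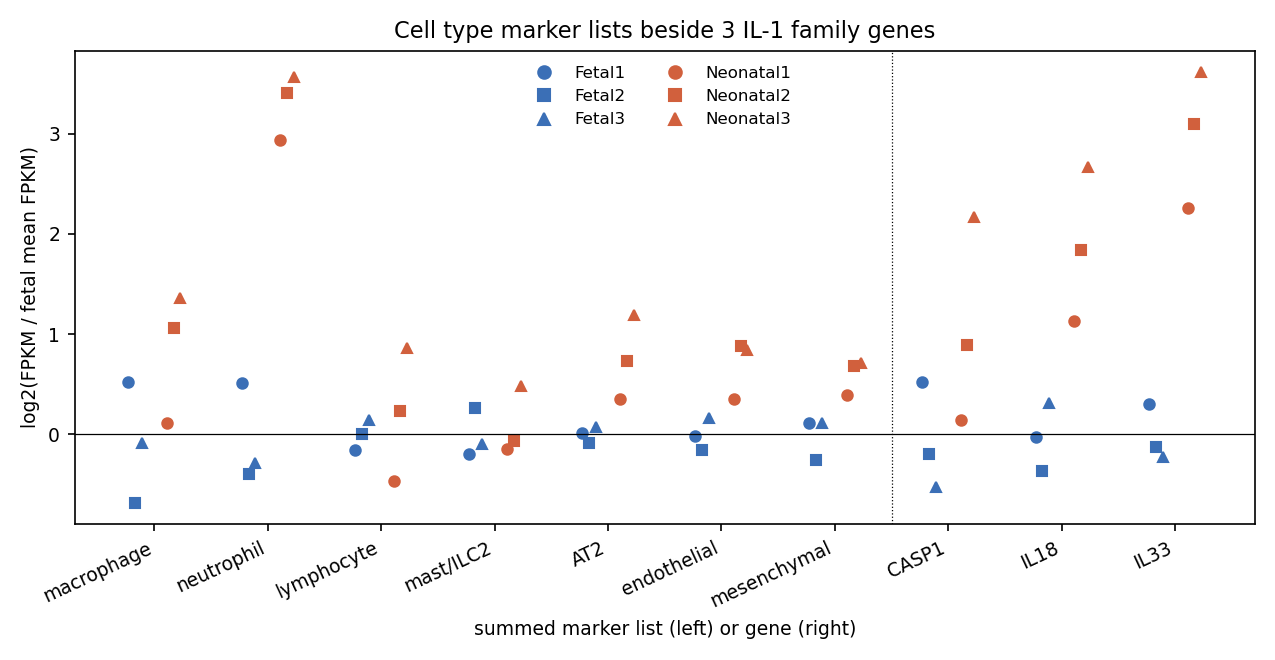
Summed FPKM of 7 cell type marker lists and FPKM of CASP1, IL18 and IL33, each as log2 relative to its fetal mean, with 1 point per piglet. Neonatal3 is highest for all 3 genes and for every list shown except the endothelial one. The IL33 points of the neonatal samples lie above those of the macrophage, alveolar type II (AT2), endothelial and mesenchymal lists. They do not lie above all those of the neutrophil list.

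Genes whose levels closely followed IL33, IL18 and IL1A over the 6 samples were found by Pearson correlation of log2(FPKM + 1), as a description. For IL33 they included BAMBI (r = 0.9992) and TAB1 (r = 0.998). For IL18 they were AKR1A1, ACTR3 and ANKRD29 (r between 0.9945 and 0.9953), and for IL1A they were PCK2, IL10RA and CHAF1A (r between 0.998 and 0.9985). All 6 samples share the split into groups, and r exceeded 0.95 for 649, 437 and 722 mRNAs, so that these genes are examples among many.

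In the RefSeq annotation of a later pig assembly, Sscrofa11.1, IL1B and IL1A are neighbours, and IL18RAP, IL18R1, IL1RL1, IL1RL2, IL1R1 and IL1R2 belong to the same stretch of chromosome. The gene on the far side of IL1A is CKAP2L, a spindle protein gene, which rose from 0.372, 0.211 and 0.200 FPKM to 2.99, 1.45 and 2.82 FPKM (difference 1.41, adjusted p = 0.0206). Its fetal values all lay under the 0.5 FPKM of the table filter, which it passed through the neonatal group alone, as IL1A and IL1B did. Beside IL33, RANBP6 differed by 0.01 (adjusted p = 0.990), and beside IL18, SDHD differed by 0.11 (adjusted p = 0.795). The differences of IL33 and IL18 were thus not seen in these measured neighbours. The neighbours were chosen by position after the results were known.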

How the data were processed

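Lung RNA of 3 fetal and 3 neonatal piglets was analysed from the mRNA table, which holds FPKM computed by the authors. Per the methods and the labels, bases were called with CASAVA 1.8.2, rRNA-depleted strand-specific libraries were mapped to Sscrofa10.2 with TopHat2 2.1.0, and FPKM came from Cufflinks 2.2.1. The authors kept mRNAs above 0.5 FPKM in 1 or more samples, which held for all 14579. The 6 value columns were matched by name, with 0 unmatched. The lncRNA table and the columns of fold changes and q values in the supplementary tables were not used. The study tested with Cuffdiff, which needs reads.

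Symbols came from a reference table (9478 mRNAs) or, where it gave none, from a supplementary table (362 mRNAs), of which 1998 genes were held. The latter lists the mRNAs that the study itself called different between these groups. A gene without a reference symbol could thus enter a list only if the study had called it. This held for IL1B, the first row of IL1R2, CASP4, TXNIP, S100A9, S100A12, AIF1, C1QC, SFTPA1 and CLDN5. Counts of the lists that hold them lean towards differences. Values were analysed as log2(FPKM + 1), which understates changes of low genes. limma 3.58.1 (R 4.3.3) was fitted with a mean-variance trend over all mRNAs, with Benjamini-Hochberg adjustment and a threshold of 0.05, and was tested on simulated data. Ratios used exact permutation tests (scipy 1.17.1). Of 5 planned ratios only IL1R2 to IL1R1 had both rows. Without counts, the spread over 3 piglets is the only error.

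The members and lists were chosen with earlier results of these data known. All members were named, with every called gene of 4 lists, filled up to 4 by size of difference; exceptions are marked. Lists of macrophage, neutrophil, lymphocyte, mast and innate lymphoid, alveolar type I and II, airway, endothelial, mesenchymal and erythroid markers were summed. Alternatives were pseudocounts of 0.5 and 0.1, quantile normalization, median-of-ratios scaling, a stricter filter (more than 1 FPKM in 3 or more samples), a fit without the trend, a block for the replicate number, and leaving out each sample.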

Additional observations from a re-analysis of the deposited data

How the results depend on the processing

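The 3 called members stayed past the threshold under all 7 alternatives with the 6 samples, with adjusted p values of 0.00534 to 0.0239 for IL33, 0.0101 to 0.0452 for IL1A and 0.0289 to 0.0442 for IL18, and no other member passed. With 1 sample left out, between 0 and 3 members passed, all higher. The number of calls over all mRNAs was then between 196 and 944, beside 1001. The stricter filter left out IL1B, IL18R1, IL18RAP, ELANE and the second row of IL1R2.

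The replicate numbers pair no animals, since the groups came from different sows. Deviations of same-numbered samples correlated at -0.0407, -0.00434 and 0.000466, and no sample correlated best with its own number. With the replicate number as a block, 401 mRNAs passed, and 0 inflammasome and 0 induced genes were called lower, since TXNIP and RORA were at 0.0959 and 0.0770. No other member or named gene of the 4 related lists changed its call. After median-of-ratios scaling and quantile normalization 2 induced genes each were called lower.

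With 1 sample left out, between 0 and 1 inflammasome genes were called higher and 0 lower, and between 0 and 2 induced genes were called higher and between 0 and 1 lower. The sign changed for IL1R1 (-0.15 to 0.035), the second row of IL1R2 (-0.36 to 0.022), its ratio to IL1R1 (-0.37 to 0.15), IL18RAP (-0.30 to 0.091) and IRAK3 (-0.44 to 2.83). The cause was not tested.

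As the median over genes in place of the sum, the log2 differences of the marker lists were 1.66 (neutrophil, 3.33 as the sum), -0.43 (airway), -0.086 (endothelial) and -0.14 (erythroid). Read counts are unknown, so what depth limits, for low genes such as IL1A, IL1B and IL18R1, could not be measured.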
